A study of Mus musculus with 9 samples.

Results

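Apoe and 9 genes of lipid uptake, lysosomal cholesterol release and cholesterol efflux were followed across 9 RNA-seq libraries of mouse aorta. The 10 genes were picked by name through their Entrez identifiers, by a rule that uses no measured value, though with earlier results of these data known: Apoe, Lpl, Cd36, Msr1, Olr1, Scarb1, Npc1, Nr1h3, Abca1 and Abcg1. They are 10 of 18830 genes in the files, and all 10 were among the 14741 genes that passed the filter on low counts. Every library came from mice whose genotype is given as ApoE knock out. The 3 groups were sham control, angiotensin II (Ang II) for 14 days and Ang II for 28 days, with 3 libraries each, and Ang II was given by osmotic pump at 1000 ng/kg/min. The series text gives saline for the controls and the suprarenal abdominal aorta as the tissue. Strain, sex, age, the Apoe allele and the harvest day of the sham mice are not stated. Nor do the labels say that the 3 libraries of a group come from separate animals, so the tests measure the spread between these libraries. Ang II infusion in Apoe-deficient mice is a common model of abdominal aortic aneurysm, in which the wall dissects, dilates and takes up leukocytes.

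Apolipoprotein E is a secreted protein of lipoprotein particles that hands remnants to lipoprotein receptors on cells, and macrophages in the artery wall also make it. Lipoprotein lipase cuts triglycerides at the vessel surface, and scavenger receptors such as Msr1, Cd36 and Olr1 take up modified LDL with little feedback from cell cholesterol. Cholesterol freed in lysosomes leaves them through Npc1. Excess cholesterol is turned into oxysterols, which activate the LXR nuclear receptors (Nr1h3 encodes LXR alpha), and these switch on the exporters Abca1 and Abcg1 and, in macrophages, Apoe itself. Lipid-loaded macrophages that cannot export enough cholesterol become foam cells.

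The libraries held 9609690 to 14923936 expected counts each, and levels are given as CPM, counts scaled to a common library size with TMM factors. Libraries differed in the tissue they held. Summed smooth muscle markers (8 of 8 detected) ran from 9528 to 28732 CPM in sham, 3601 to 16557 CPM at 14 days and 2051 to 6986 CPM at 28 days, so their RNA was read in each library. At 28 days against sham 7 of the 8 were lower, while Des was higher, at a log2 fold change of 1.84. These markers do not show which tissue the smooth muscle came from. Skeletal muscle markers were at most 43.9 CPM in sham and 14-day libraries but reached 14162 and 4768 CPM in replicates 1 and 2 at 28 days (99.5 CPM in replicate 3), and the sample titles call the tissue muscle while its source is given as aorta. Nerve markers were highest in sham replicate 2, 14-day replicate 1 and 28-day replicate 2, and lymphocyte markers in 14-day replicate 3 and 28-day replicate 2. Adrenal cortex and hepatocyte markers stayed at or below 10.5 and 4.62 CPM in sum, and of their genes Cyp3a11 was at 0 in all libraries. The 15 macrophage and monocyte markers summed to 2538, 573 and 1221 CPM in sham, 3515, 20374 and 3608 CPM in 14-day libraries and 3285, 4233 and 5628 CPM in 28-day libraries. Replicate 2 at 14 days thus carried more macrophage marker RNA than any other library, and values without it are given for the genes and lists where it moved them most. In whole tissue, fewer cells of a type and less RNA per cell cannot be told apart.

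None of the 10 genes passed edgeR's quasi-likelihood test at an adjusted p of 0.05 in any of the 3 comparisons, and neither did any other gene (0%), although 3460, 2042 and 903 genes had an unadjusted p under 0.05 at 14 days against sham, 28 days against sham and 28 days against 14 days. At an unadjusted p under 0.05, 5 of the 10 were higher at 14 days than in sham and 0 were lower, beside 13.1% of all genes higher and 10.4% lower (23.5% in either direction). For 28 days against sham 1 gene was higher and 0 were lower, beside 7.96% and 5.89% (13.9%), and for 28 days against 14 days 2 were higher and 1 was lower, beside 3.86% and 2.27% (6.13%). DESeq2 called 4 of the 10 higher at 14 days than in sham (Apoe, Msr1, Olr1 and Abcg1) and 0 lower, where it called 8.27% of all genes higher and 4.2% lower (12.5% together). At 28 days against sham it called 1 higher (Scarb1) and 0 lower, beside 4.03% and 2.66% (6.68% together). Between the Ang II groups it called 0 of the 10, beside 0.608% higher and 0.182% lower (0.789% together). The same 4 genes lay above sham in all 14-day libraries and 1, Cd36, lay below, beside 12.6% and 13.5% of all genes (26.1% together). At 28 days 2 genes lay wholly above sham (Msr1 and Scarb1) and 0 below, beside 12.2% and 9.46% (21.7% together). Against 14 days 2 lay wholly above at 28 days (Cd36 and Scarb1) and 1 below (Olr1), beside 4.34% and 5.71%. limma-voom called 0 in each comparison. The median log2 fold change of the 10 was 0.96 at 14 days against sham, 0.59 at 28 days against sham and -0.53 for 28 days against 14 days, while over all genes tested it was -0.07, -0.08 and -0.05. Without 14-day replicate 2 the median of the 10 was 0.47 at 14 days against sham, and for 28 days against 14 days it turned to 0.25, with 7 of 10 positive instead of 4. The median at 28 days against sham was lowest, at 0.30, without sham replicate 2 and highest, at 0.93, without sham replicate 1. The count of 5 higher at 14 days at an unadjusted p under 0.05 ran from 2 (without sham replicate 3) to 6 with each library left out in turn, the 1 at 28 days against sham from 1 to 3, and the 2 higher for 28 days against 14 days from 0 to 2. These 3 comparisons share their libraries and are not independent of each other.

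**Figure D1:**
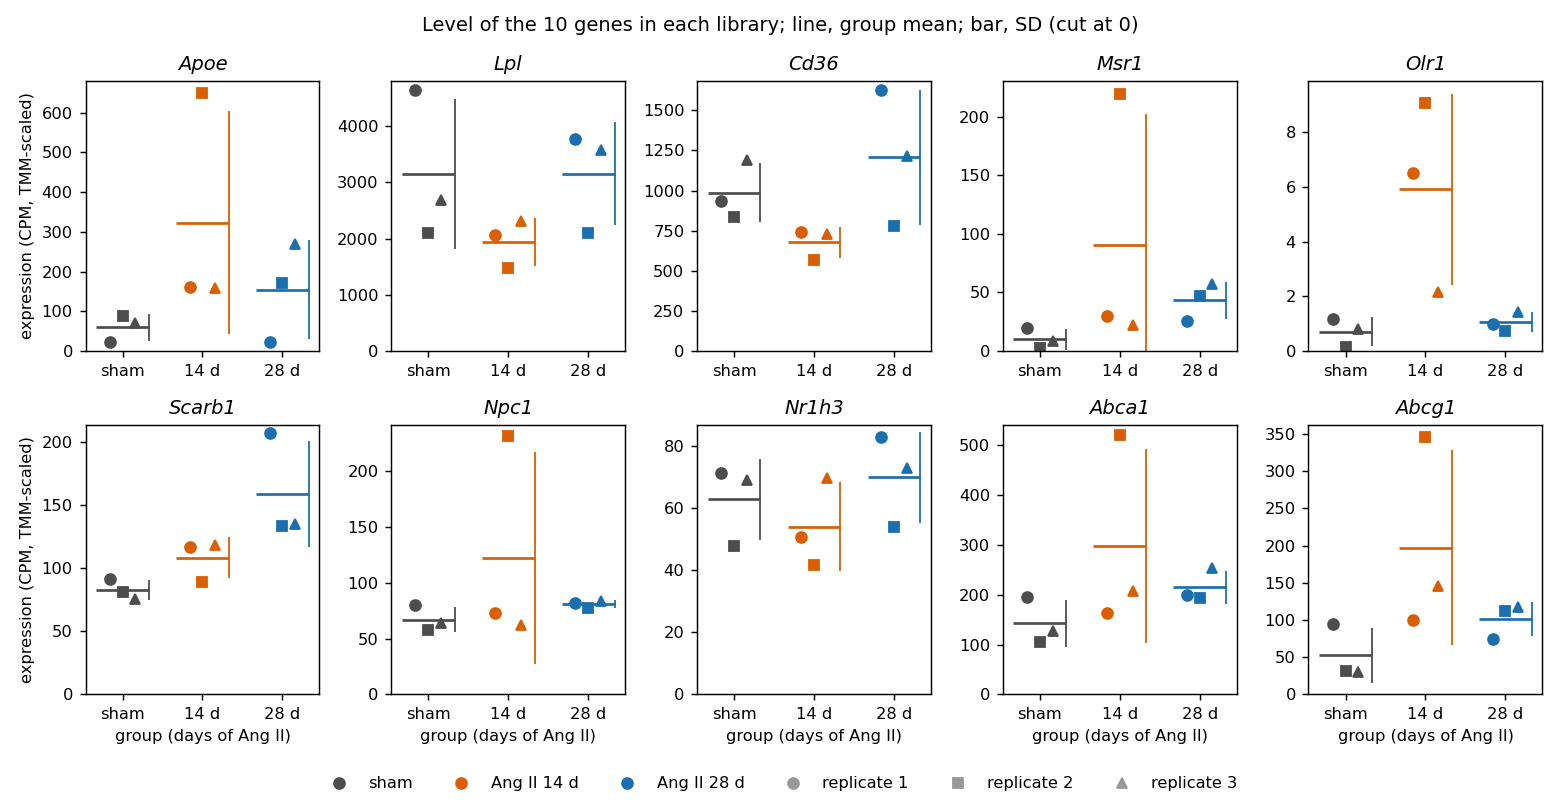
Level of each of the 10 genes (CPM, vertical axis from 0) in the 9 libraries by group, with colours for groups and shapes for replicate numbers; lines are group means and bars are SD of 3 libraries. Replicate 2 at 14 days (orange square) is the highest library for 6 genes, Apoe, Msr1, Olr1, Npc1, Abca1 and Abcg1, and the lowest for Lpl, Cd36 and Nr1h3.

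Apoe (Entrez 11816, chr7:19696244-19701310, GRCm38.p6) was read in every library although every mouse is labelled as its knockout. In replicates 1 to 3 the sham group had 22.5, 87.5 and 70.3 CPM, the 14-day group 162, 648 and 160 CPM, and the 28-day group 23.0, 171 and 270 CPM. All 14-day libraries lay above all sham libraries, while the 28-day group overlapped both others: its replicate 1 was as low as sham replicate 1, and its replicates 2 and 3 lay within the 14-day range. In expected counts this was 211 in sham replicate 1 and 210 in 28-day replicate 1, against 8999 in 14-day replicate 2. The labels name no allele and a count per gene does not say which exons were read, so the counts do not check the genotype, and there is no wild-type library to set the level against. At 14 days Apoe was 5.38-fold the sham level in edgeR's fit (log2 fold change 2.43 ± 0.97, SE, n = 3 against 3, edgeR unadjusted p = 0.0368, adjusted p = 0.186), and DESeq2 gave an adjusted p of 0.0418. Without 14-day replicate 2 the log2 fold change was 1.44, edgeR's lowest when any library was left out. At 28 days it was 1.36 ± 0.94 against sham (edgeR adjusted p = 0.629) and -1.06 ± 0.93 against 14 days (edgeR adjusted p = 0.813), and without 14-day replicate 2 the latter shrank to -0.05. Apoe levels spanned 28.8-fold from the lowest to the highest library.

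Set against the macrophage markers, Apoe overlapped between all groups. Per 1000 CPM of summed macrophage markers it stood at 46.1, 31.8 and 44.3 CPM in the 14-day libraries and at 40.5 and 47.9 CPM in 28-day replicates 2 and 3. It stood at 8.86 CPM in sham replicate 1 and 7.0 CPM in 28-day replicate 1, and at 153 and 57.6 CPM in sham replicates 2 and 3, which had the fewest macrophage markers. By group that is 73.0 ± 73.2 in sham, 40.7 ± 7.79 at 14 days and 31.8 ± 21.8 at 28 days (SD, n = 3 each). The part of macrophage content in the Apoe difference was not tested.

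Apoe shares its stretch of chromosome 7 with other apolipoprotein genes, of which Apoc1 and Apoc2 are given here after their values were seen. Apoc1 is an apolipoprotein C whose gene (chr7:19689480-19692659) lies next to Apoe. It was at 54.4, 173 and 341 CPM in sham, 153, 103 and 223 CPM in 14-day libraries and 90.3, 151 and 357 CPM in 28-day libraries, with all groups overlapping. Sham replicate 1 and 28-day replicate 1 were lowest for Apoc1 as for Apoe. However, 14-day replicate 2, the highest library for Apoe, was at 103 CPM for Apoc1. Apoc2, the cofactor of lipoprotein lipase (chr7:19671579-19677941), was at 1.39, 0.43 and 0.56 CPM in sham, 5.05, 38.1 and 2.54 CPM in 14-day libraries and 3.28, 3.84 and 10.002 CPM in 28-day libraries. Each Ang II library had more Apoc2 than each sham library, and 14-day replicate 2 was again the highest (log2 fold change 4.29 ± 1.16 at 14 days, edgeR adjusted p = 0.117; DESeq2 adjusted p = 0.00083; 2.31 without that library). With 13, 6 and 6.32 counts in sham, Apoc2 passed edgeR's filter on low counts only through the Ang II libraries, where it is high. Its edgeR results are therefore given as a description. In the list of 17 apolipoprotein, lipid transfer and lipoprotein receptor genes that holds them, 14 were tested. Of these 3 were higher, Apoc2 among them, and 2 lower at 14 days at an unadjusted p under 0.05, with a median log2 fold change of 0.47, beside 13.1% and 10.4% of all genes. At 28 days 1 was higher and 0 lower, with a median of 0.00, beside 7.96% and 5.89%. Leaving out 1 library at a time gave 1 to 4 higher and 0 to 2 lower at 14 days, with 1 higher and a median of 0.26 when 14-day replicate 2 was left out.

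**Figure D2:**
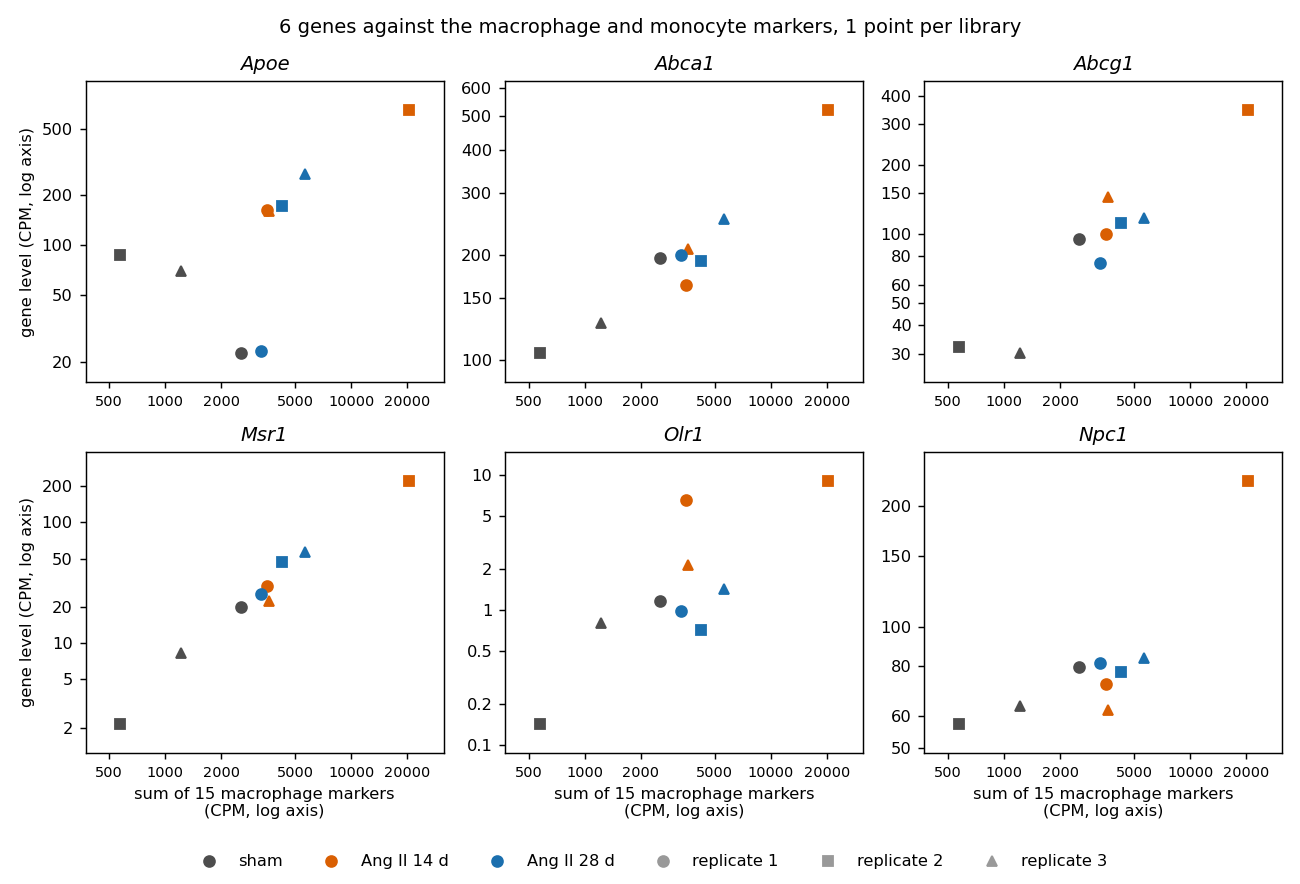
Level of 6 genes (CPM, log vertical axis) against the summed CPM of 15 macrophage and monocyte markers (log horizontal axis), 1 point per library, coloured by group. Msr1 climbs with the markers from 2.15 to 220 CPM, whereas sham replicate 1 and 28-day replicate 1 sit apart in the Apoe panel at 22.5 and 23.0 CPM.

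Of the scavenger receptors for modified LDL, Msr1 and Olr1 were higher and Cd36 lower in all 14-day libraries than in all sham libraries. Msr1 (class A scavenger receptor, SR-A; Entrez 20288, chr8:39543232-39642750) had 19.9, 2.15 and 8.28 CPM in sham, 29.8, 220 and 22.2 CPM in 14-day libraries and 25.4, 47.0 and 57.1 CPM in 28-day libraries. Every Ang II library was above every sham library at both times, though the lowest 14-day library passed the highest sham library by little. The log2 fold change was 3.17 ± 1.09 at 14 days (9.0-fold, edgeR adjusted p = 0.148, DESeq2 adjusted p = 0.00956) and 2.10 ± 1.04 at 28 days (4.29-fold, edgeR adjusted p = 0.449). Left without 14-day replicate 2, the 14-day value was 1.39, and the 28-day against 14-day value turned from -1.07 to 0.74. Per 1000 CPM of macrophage markers Msr1 stood between 3.75 and 11.1 CPM in all 9 libraries, a 2.96-fold range against 102-fold for its level, so it kept closer to these markers than the other 9 genes did. Abcg1 came close to Msr1 in this, with a 3.30-fold range against 11.4-fold for the Abcg1 level. Whether the Msr1 difference goes beyond macrophage content was not tested.

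Olr1 (the lectin-like oxidised LDL receptor LOX-1; Entrez 108078, chr6:129479150-129507350) was the scarcest of the 10. It had 11, 2 and 9 counts in sham, 93, 126 and 32 at 14 days and 9, 10 and 19 at 28 days, or 1.17, 0.14 and 0.80 CPM, 6.52, 9.08 and 2.17 CPM, and 0.99, 0.72 and 1.44 CPM. The 14-day libraries all stood above the sham and the 28-day libraries, which overlapped each other. The log2 fold change was 3.08 ± 0.81 at 14 days against sham (8.44-fold, edgeR adjusted p = 0.117, DESeq2 adjusted p = 0.00291) and -2.49 ± 0.78 at 28 days against 14 days (edgeR unadjusted p = 0.0127, adjusted p = 0.770). Olr1 rested less than Msr1 on 14-day replicate 2: without it these values were 2.65 and -2.04. Relative to macrophage markers it was highest in 14-day replicate 1, at 1.85 CPM per 1000, and between 0.17 and 0.66 CPM per 1000 in the other 8 libraries.

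Cd36 (a fatty acid translocase that also binds oxidised LDL; Entrez 12491, chr5:17781690-17888959) went the other way at 14 days. It had 934, 838 and 1191 CPM in sham, 742, 568 and 728 CPM in 14-day libraries and 1625, 781 and 1218 CPM in 28-day libraries. The 14-day libraries lay below all 6 others, and sham and 28 days overlapped. The log2 fold change was -0.54 ± 0.31 at 14 days against sham (edgeR adjusted p = 0.326) and 0.83 ± 0.31 at 28 days against 14 days (1.78-fold, edgeR unadjusted p = 0.0272, adjusted p = 0.770). With a library left out the latter ran from 0.56, without 28-day replicate 1, to 1.07, without 28-day replicate 2. Replicate 1 at 28 days, the highest for Cd36, also had the most skeletal muscle markers (14162 CPM). Brown adipocyte markers (7 of 7 detected) were low in the same libraries, at 1452, 1093 and 2670 CPM at 14 days beside 4515 to 9582 CPM in sham and 1970 to 5483 CPM at 28 days. Per 1000 CPM of these markers Cd36 was at 189, 186 and 124 CPM in sham and 511, 519 and 272 CPM at 14 days. On that scale these groups did not overlap and stood in the opposite order to the Cd36 level. The range of Cd36 was 4.18-fold per brown adipocyte markers, beside 2.86-fold for its level. Per 1000 CPM of white adipocyte markers its range was narrower, 2.54-fold. There it stood at 96.8 ± 25.1 in sham, 93.3 ± 51.2 at 14 days and 100 ± 16.3 at 28 days (SD, n = 3 each). Per endothelial markers the range was 2.78-fold, and per macrophage markers 52.5-fold. The part of brown or white adipocytes, endothelium or skeletal muscle in the Cd36 values was not tested.

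**Figure D3:**
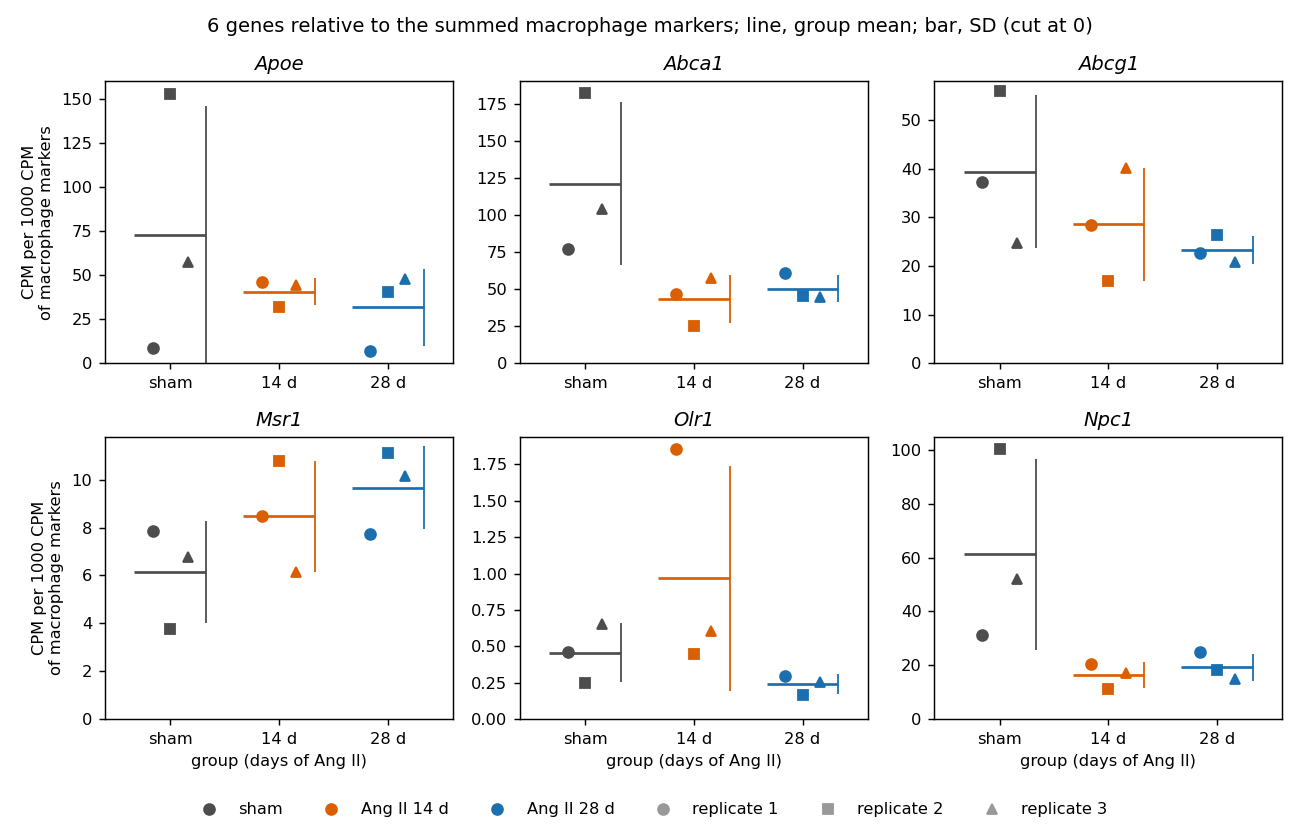
CPM of 6 genes per 1000 CPM of the 15 summed macrophage markers (vertical axis from 0) by group, with each library as a point, the group mean as a line and the SD of 3 libraries as a bar. Msr1 stays between 3.75 and 11.1, Apoe is lowest in replicate 1 of sham and of 28 days, and Abca1 and Npc1 are higher in the 3 sham libraries than in all Ang II libraries. The ratio falls wherever the markers rise more than the gene, so it is no level per macrophage.

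Among the 15 genes listed for scavenger receptors and modified LDL uptake, all were tested, and 6 were higher and 0 lower at 14 days at an unadjusted p under 0.05, beside 13.1% and 10.4% of all genes (3 and 0 at 28 days, beside 7.96% and 5.89%). With 1 library left out at a time 4 to 7 were higher at 14 days and 0 lower, and 4 were higher when 14-day replicate 2 was left out. The medians were 0.39 and 0.59 on the log2 scale, beside -0.07 and -0.08 over all genes. Marco, a class A scavenger receptor of some macrophages, had 2, 2 and 1 counts in sham, no more than the 3 counts taken as the detection floor, so no fold is given. Its counts were 404, 264 and 273 at 14 days (28.3, 19.0 and 18.5 CPM) and 27, 4996 and 301 at 28 days (2.96, 358 and 22.9 CPM). The Ang II libraries all exceeded the sham libraries, 28-day replicate 2 had the most, and edgeR's adjusted p was 0.117 at 14 days and 0.203 at 28 days (DESeq2 adjusted p = 2.1e-05 and 4.0e-10). With sham and 14-day libraries fitted alone, Marco was the 1 gene of all that edgeR called. It passed edgeR's filter on low counts only through the Ang II libraries, where it is high, so its edgeR results are given as a description. Without 28-day replicate 2 its edgeR adjusted p at 28 days against sham was 0.478, as low as that of any gene in that fit. Its edgeR unadjusted p there was 0.00022, beside 0.0013 with all libraries, so the higher adjusted p came from the adjustment over all genes. Scara3, another class A member, was at 143, 178 and 114 CPM in 14-day libraries and 94.0, 52.7 and 94.3 CPM in 28-day libraries (-0.85 ± 0.38, edgeR adjusted p = 0.770).

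Scarb1 (SR-BI, the HDL receptor through which cholesteryl ester is taken up and cholesterol leaves; Entrez 20778, chr5:125277087-125341094) had the smallest edgeR p of the 10 in any comparison. It had 91.6, 80.8 and 75.6 CPM in sham, 117, 89.4 and 118 CPM in 14-day libraries and 207, 134 and 135 CPM in 28-day libraries. All 28-day libraries lay above all sham and all 14-day libraries, and the sham and 14-day groups overlapped by 1 library. The log2 fold change was 0.94 ± 0.22 at 28 days against sham (1.92-fold, edgeR unadjusted p = 0.00265, adjusted p = 0.203, DESeq2 adjusted p = 0.00295), 0.55 ± 0.22 against 14 days (edgeR adjusted p = 0.770) and 0.39 ± 0.22 at 14 days against sham (edgeR adjusted p = 0.321). Leaving out 28-day replicate 1, the highest library, gave 0.70 against sham. The 8 endothelial markers summed to 858 to 1148 CPM in sham, 796 to 1859 CPM at 14 days and 1100 to 1876 CPM at 28 days, and the same replicate 1 was their highest library. Per 1000 CPM of endothelial markers Scarb1 was at 80.5, 94.2 and 65.9 CPM in sham and 110, 120 and 123 CPM at 28 days, without overlap. On that scale the 14-day libraries were at 62.9, 112 and 90.5 CPM and overlapped both other groups. Skeletal muscle markers were above those of all other groups in the 3 libraries at 28 days, least so in replicate 3, where Scarb1 was at 135 CPM. Their part in the Scarb1 values was not tested.

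Lpl (lipoprotein lipase; Entrez 16956, chr8:68880555-68906932) was the most read of the 10, at 4646, 2099 and 2686 CPM in sham, 2062, 1474 and 2305 CPM in 14-day libraries and 3771, 2102 and 3585 CPM in 28-day libraries. Groups overlapped in all comparisons. Its log2 fold change was -0.69 ± 0.39 at 14 days (edgeR adjusted p = 0.326), 0.00 ± 0.39 at 28 days against sham and 0.70 ± 0.39 at 28 days against 14 days (edgeR adjusted p = 0.774). White adipocyte markers (8 of 8 detected) were at 12638, 9018 and 9637 CPM in sham, 10936, 3731 and 12158 CPM in 14-day libraries and 14093, 7650 and 14683 CPM in 28-day libraries. Lpl stood at 189 to 395 CPM per 1000 CPM of these markers, a 2.10-fold range beside 3.15-fold for its level. The share of Lpl that came from fat was not tested.

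**Figure D4:**
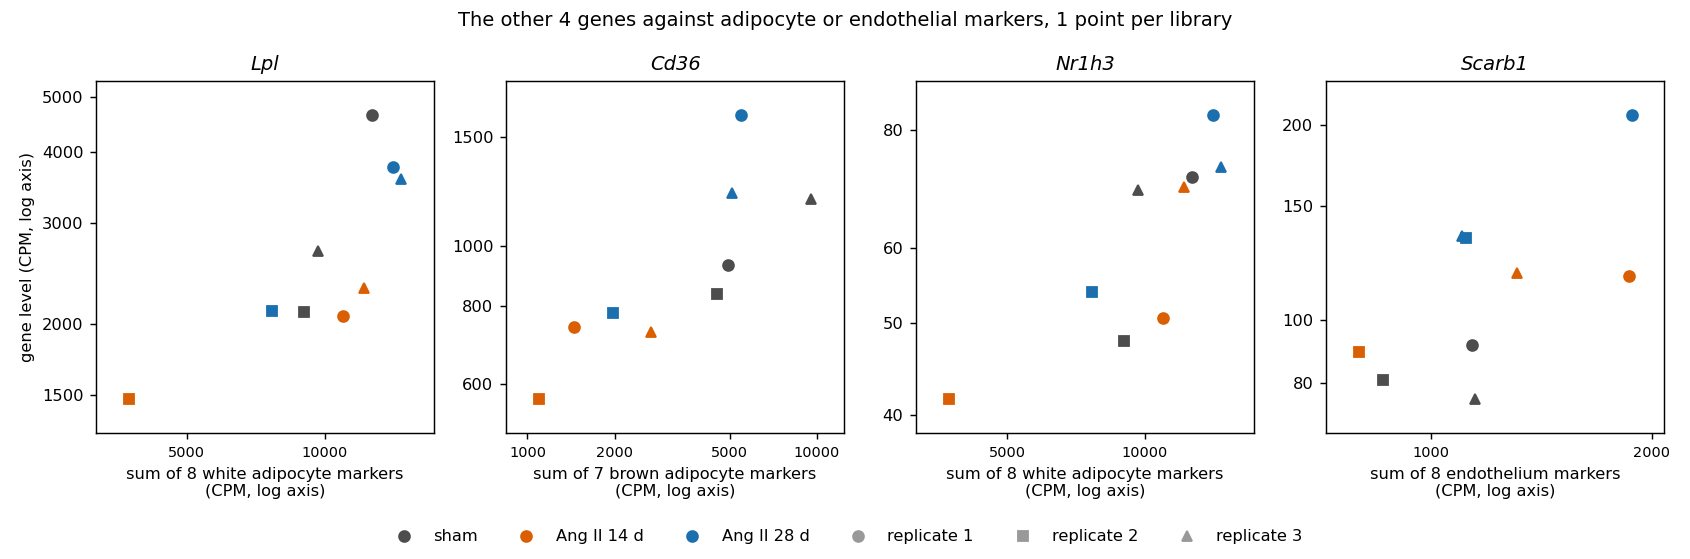
Level of Lpl, Cd36, Nr1h3 and Scarb1 (CPM, log vertical axis) against the summed CPM of white adipocyte, brown adipocyte or endothelial markers (log horizontal axis), 1 point per library. Replicate 2 at 14 days is lowest for Lpl, Cd36 and Nr1h3 and lowest in the markers plotted with them, and the 28-day libraries hold the highest Scarb1 levels, from 134 to 207 CPM.

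Around lipoprotein lipase, Gpihbp1, which carries it across capillary endothelium and anchors it there, had 65.5, 45.6 and 56.0 CPM in sham, 60.3, 57.0 and 47.5 CPM in 14-day libraries and 172, 73.7 and 91.9 CPM in 28-day libraries. All 28-day libraries were above the 6 others, with log2 fold changes of 1.02 ± 0.32 against sham (edgeR adjusted p = 0.234, DESeq2 adjusted p = 0.0459) and 1.04 ± 0.32 against 14 days (edgeR adjusted p = 0.770), or 0.57 and 0.59 without 28-day replicate 1. That library was also the highest in endothelial (1876 CPM) and skeletal muscle (14162 CPM) markers, whose part in the Gpihbp1 values was not tested. Angptl4, a secreted inhibitor of the enzyme, was at 133, 192 and 127 CPM in 14-day libraries and 263, 183 and 234 CPM in 28-day libraries, with overlap (0.59 ± 0.26, edgeR adjusted p = 0.770). The list of 10 genes for triglyceride hydrolysis at the vessel wall had 8 tested members, all 8 with negative log2 fold changes at 14 days (median -0.31) and 0 at an unadjusted p under 0.05, beside 10.4% of all genes lower. With each library left out in turn, 5 to 8 were negative at 14 days and 0 to 2 lower at an unadjusted p under 0.05. For 28 days against 14 days the median was 0.55, with 7 positive and 1 higher at an unadjusted p under 0.05, beside 3.86% of all genes (1 to 3 with each library left out in turn).

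Npc1 (the lysosomal membrane protein that exports LDL cholesterol; Entrez 18145, chr18:12189694-12236506) had 79.6, 57.5 and 63.5 CPM in sham, 72.5, 231 and 62.3 CPM in 14-day libraries and 81.4, 77.5 and 84.0 CPM in 28-day libraries. Apart from 14-day replicate 2 all 8 libraries lay between 57.5 and 84.0 CPM. The log2 fold change at 14 days was 0.87 ± 0.47 (edgeR adjusted p = 0.302) with that library and 0.03 without it. At 28 days it was 0.28 ± 0.46 against sham (edgeR adjusted p = 0.902). In the list for lysosomal cholesterol release and storage, 14 of 14 genes were tested, 3 were higher and 2 lower at 14 days at an unadjusted p under 0.05 (median 0.61), beside 13.1% and 10.4% of all genes. At 28 days 0 were higher and 1 lower (median 0.31), beside 7.96% and 5.89%. The 14-day counts ran from 2 to 6 higher and 0 to 2 lower with 1 library left out at a time, and leaving out 14-day replicate 2 brought the median to 0.13.

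Nr1h3 (LXR alpha; Entrez 22259, chr2:91184061-91202829) was the steadiest of the 10, within a 1.99-fold range. It had 71.3, 47.8 and 69.1 CPM in sham, 50.6, 41.6 and 69.6 CPM in 14-day libraries and 82.9, 54.0 and 73.0 CPM in 28-day libraries. All groups overlapped, and the log2 fold changes were -0.22 ± 0.26 at 14 days and 0.16 ± 0.26 at 28 days against sham (edgeR adjusted p = 0.654 and 0.900). It was lowest in 14-day replicate 2, where the macrophage markers were highest and the white adipocyte markers lowest. Per 1000 CPM of white adipocyte markers its range was 2.41-fold, wider than that of its level.

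Abca1 and Abcg1, exporters of cholesterol to lipid-poor apolipoprotein A-I and to HDL, are both switched on by LXR. Abca1 (Entrez 11303, chr4:53030789-53159988) had 195, 104 and 127 CPM in sham, 164, 519 and 208 CPM in 14-day libraries and 200, 192 and 253 CPM in 28-day libraries. The groups overlapped through sham replicate 1, the sham library with the most macrophage markers. Its log2 fold change was 1.06 ± 0.45 at 14 days (edgeR unadjusted p = 0.0452, adjusted p = 0.204; 0.41 without replicate 2) and 0.60 ± 0.45 at 28 days (edgeR adjusted p = 0.673). Abcg1 (Entrez 11307, chr17:31057694-31117984) had 94.8, 32.1 and 30.3 CPM in sham, 100, 346 and 145 CPM in 14-day libraries and 74.5, 112 and 117 CPM in 28-day libraries. The 14-day libraries were all above sham, the closest pair being 14-day replicate 1 and sham replicate 1. The 14-day log2 fold change was 1.91 ± 0.60 (3.76-fold, edgeR unadjusted p = 0.0127, adjusted p = 0.133, DESeq2 adjusted p = 0.0118), 1.26 without 14-day replicate 2 and 2.66 without sham replicate 1, and at 28 days it was 0.95 ± 0.58 (edgeR adjusted p = 0.568). Per 1000 CPM of macrophage markers Abca1 was at 76.9, 182 and 104 CPM in sham and 25.5 to 60.9 CPM in the 6 Ang II libraries, without overlap and in the opposite order to its level. The summed markers differed more between sham and Ang II libraries than Abca1 did, so this ratio is no level per macrophage. Nr1h3 and Lpl also lay lower on that scale in all Ang II libraries than in sham. Abca1 per macrophage was not tested. Abcg1 on that scale overlapped, at 24.8 to 56.1 CPM in sham and 17.0 to 40.2 CPM in the Ang II libraries.

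A promoter match is shown for Abca1, since an LXR site there is the textbook link between Nr1h3 and cholesterol export. The RefSeq windows for GRCm38.p6 run from 250 bases before to 50 bases after a gene start, and 8 windows of 5 members (Apoe, Nr1h3, Abca1, Cd36 and Olr1) were searched on both strands. The direct repeat of the LXR type, DR4, was searched as a pair of GGTNA copies in tandem with 5 bases between them, and was found in 0.718% of the 32851 windows and, among these members, in Abca1, from 67 bases before the start. The 250 bases upstream of the Abca1 start are given 5′ to 3′ on the gene's strand (minus strand, chr4:53159896-53160145), with the repeat, which reads on the other strand, in capitals.
Abca1: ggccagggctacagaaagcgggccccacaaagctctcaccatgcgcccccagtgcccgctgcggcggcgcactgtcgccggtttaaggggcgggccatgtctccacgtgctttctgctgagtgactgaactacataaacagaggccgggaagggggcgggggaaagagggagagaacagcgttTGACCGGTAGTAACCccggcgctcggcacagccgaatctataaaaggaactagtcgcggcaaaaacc
The PPAR type repeat DR1, a pair of GGTNA copies with 2 bases between them (1.1% of windows), and the SREBP site TCACNCCAC (1.24%) were in no member window. The PU.1 core GAGGAAG (13.6%) was in an Nr1h3 window, and the E-box CANNTG (72.3%) in windows of all 5. The core letters AGGTCA of nuclear receptor sites, which the DR4 and PPAR patterns can contain, were in 16.3% of windows and in Cd36 and Olr1, 228 and 175 bases before the start. These stretches are shown with the letters in capitals, on the gene's strand, minus for both, so that Cd36 reads in reverse (chr5:17836107-17836136 and chr6:129507323-129507352).
Cd36: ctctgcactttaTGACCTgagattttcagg
Olr1: tttcttagtgaaAGGTCAtgaagcatgact
A match of letters is a description of the sequence and says nothing of binding in these aortas. Abcg1, Scarb1, Msr1, Lpl and Npc1 were not searched.

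**Figure D5:**
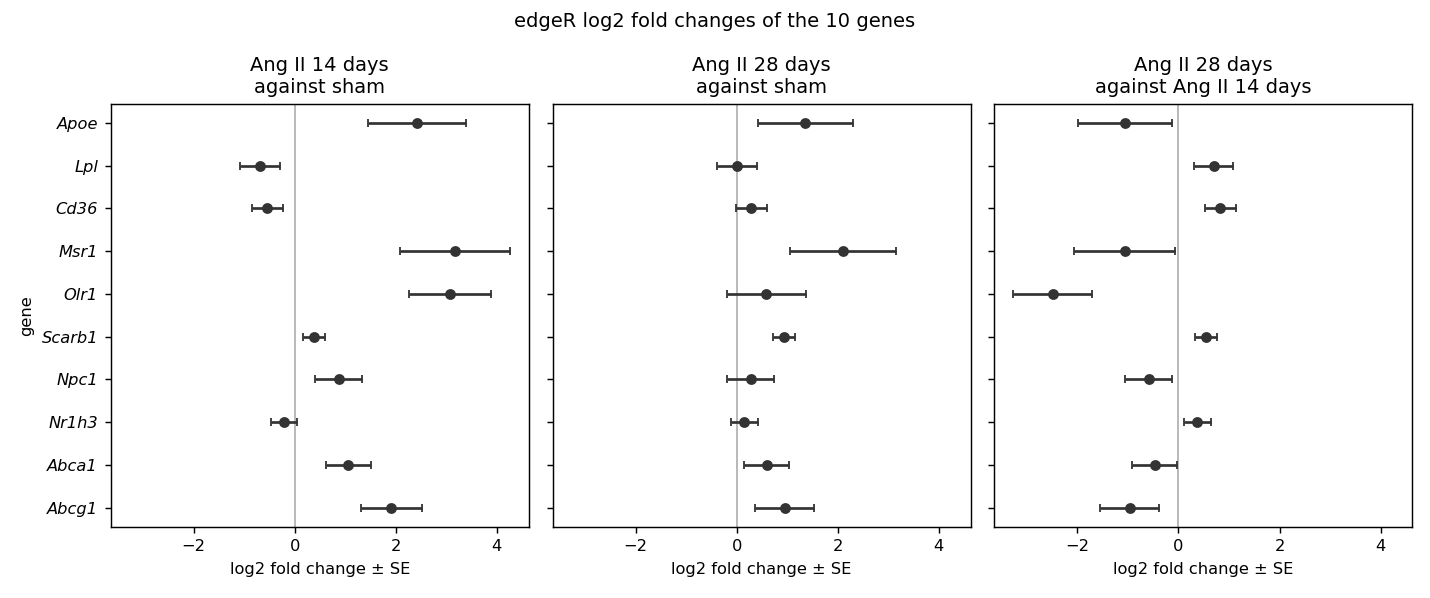
edgeR log2 fold changes (horizontal axis, points, with SE bars) of the 10 genes in the 3 comparisons of 3 against 3 libraries. At 14 days against sham 7 genes lie right of 0, with Msr1 at 3.17 and Olr1 at 3.08, while Scarb1 has the narrowest bar, and Olr1 lies farthest left, at -2.49, for 28 days against 14 days.

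The list of 19 genes of cholesterol efflux and LXR, all tested, holds Abca1, Abcg1 and Nr1h3 of the 10. At 14 days 6 were higher and 1 lower at an unadjusted p under 0.05 with a median log2 fold change of 0.00, beside 13.1% and 10.4% of all genes. Abca1 and Abcg1 were among the 6 higher. At 28 days 3 were higher and 1 lower with a median of 0.07, beside 7.96% and 5.89%. Each library left out in turn gave 4 to 6 higher and 0 to 1 lower at 14 days, and 1 to 5 higher and 0 to 1 lower at 28 days. Arl4c, a small GTPase gene that LXR induces, had 15.5, 28.6 and 11.7 CPM in sham, 37.3, 175 and 133 CPM in 14-day libraries and 27.5, 65.3 and 62.9 CPM in 28-day libraries. It did not overlap between 14 days and sham (2.63 ± 0.63, edgeR adjusted p = 0.117, DESeq2 adjusted p = 0.00082; 2.22 without 14-day replicate 2). Mylip, an LXR-induced ubiquitin ligase, had 56.7, 28.3 and 33.5 CPM in sham, 61.2, 110 and 105 CPM in 14-day libraries and 92.6, 85.0 and 70.4 CPM in 28-day libraries. Both Ang II groups lay above sham, by 1.22 ± 0.32 and 1.07 ± 0.32 on the log2 scale (edgeR adjusted p = 0.117 and 0.225, DESeq2 adjusted p = 0.00559 and 0.0317). Over the 5 lists together 70 of 75 genes were tested, of which 18 were higher and 5 lower at 14 days at an unadjusted p under 0.05, against 13.1% and 10.4% of all genes, and edgeR called 0. These lists hold the 10 genes, and without them 13 of 60 tested genes were higher, Apoc2 and Marco among them, and 5 lower.

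Levels can be ranked between genes only per length. Divided by the summed exon length of each gene in kilobases and averaged over the 9 libraries, Cd36 and Lpl led at 267 and 262 CPM per kb, followed by Apoe at 83.9, Nr1h3 at 24.7, Abca1 at 21.0, Abcg1 at 16.01, Scarb1 at 13.7, Npc1 at 7.95, Msr1 at 7.56 and Olr1 at 0.72. The ranges of all neighbours in this order overlapped over the 9 libraries, though within each library Abca1 stood above Abcg1 and Msr1 above Olr1. In the 14-day libraries the order of the means was different: Msr1 had 1.59 ± 1.42 CPM per kb in sham and 14.3 ± 17.6 at 14 days, passing Npc1 and Scarb1 in the mean though not beyond its SD (n = 3 each). That rested on 14-day replicate 2, with 220 CPM of Msr1. In replicates 1 and 3, at 29.8 and 22.2 CPM, Msr1 stayed below Npc1 and Scarb1 per kb. Cd36 and Lpl overlapped in every group. Apoe, at 28.1 ± 15.8 CPM per kb in sham, overlapped Nr1h3 at 25.0 ± 5.15, and reached 151 ± 132 at 14 days.

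Genes most like each member were taken by Pearson's r of log2 CPM over the 9 libraries, a description with no test, since the libraries share 3 groups and several tissues. Msr1 was most like Tyrobp, Cd68 and Lyz2 (r = 0.99 for each, Spearman's rho 0.95 to 1.0), all macrophage or myeloid genes. Abcg1 was most like Plek, Cd47 and St6galnac4 (r = 0.98, 0.98 and 0.97), and Abca1 most like Uap1l1, Xylt2 and Ms4a14 (r = 0.99, 0.99 and 0.98). The genes nearest Npc1 were Hilpda, Galc and Esd (r = 0.99 for each), and those nearest Olr1 were Aldh18a1, Casp4 and Il18bp (r = 0.95 for each). Apoe had less close neighbours, Ankfy1, Dnajc13 and Pgap6 (r = 0.92, 0.91 and 0.90). Scarb1 was most like Tmem88, Chst15 and Cldn5 (r = 0.97, 0.95 and 0.94), of which Cldn5 is a tight junction gene of endothelium. Lpl was nearest Trit1, Etfbkmt and Pex10 (r = 0.98, 0.96 and 0.96), Cd36 nearest Arhgap29, Glul and Yes1 (r = 0.96, 0.96 and 0.95), and Nr1h3 nearest Vps54, Itpkb and Elmod3 (r = 0.96, 0.95 and 0.94). Without 14-day replicate 2 these r ran from 0.87 (Apoe with Ankfy1) to 0.99 (Msr1 with Tyrobp).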

How the data were processed

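The deposited files hold, per their column names, expected counts per gene for each library, made by the authors. Tools named in the submitters' processing notes are RSEM 1.3.1, Bowtie2 2.4.5 and HISAT2 2.2.1 on GRCm38.p6, with roles, annotation and strandedness not given in the sources used here. Per the labels' protocols, TRIzol RNA (1.0 ug) went into MGIEasy mRNA libraries. Reads that match several genes are shared in such counts: 9.77% to 11.0% of genes per library were not whole, and values were rounded for tests. Of 18830 genes, 18775 matched a symbol, and 0 value columns were left unused.

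edgeR 4.0.16 (R 4.3.3) fitted quasi-likelihood models with TMM factors to all 9 libraries, after filterByExpr, adjusting p over 14741 genes (Benjamini-Hochberg, threshold 0.05). SE is the log2 fold change over the root of F. The common dispersion of 0.263 is a biological coefficient of variation of 51.3%, and 3 counts, the detection floor, are 0.204 to 0.328 CPM. The floor covers counting error only. An exact permutation test of 3 against 3 cannot go below p = 0.1 and was not used. DESeq2 1.42.0, limma 3.58.1, other scaling and filters, a replicate block, fits of only 2 groups and fits without each library in turn were alternatives. The fit was tested on simulated data. Groups of libraries rich in nerve, lymphocyte or skeletal muscle markers were left out as alternatives chosen after seeing the data, as was each library for the lists and other named genes.

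The 10 genes and all lists were chosen with earlier results of these data known. Named genes are the 10, the 3 other genes of the 5 pathway lists with the smallest edgeR p and a mean of at least 5 CPM per comparison, and the 3 genes of at least 10 CPM most like each of the 10 (of 10741). Log2 CPM used a prior count of 2. Exon lengths are from GENCODE M21 on GRCm38. The lists for smooth muscle, skeletal muscle, nerve, lymphocyte, adrenal cortex, hepatocyte, macrophage, white and brown adipocyte, endothelial and fibroblast markers are given as summed CPM. Fibroblast markers were at 2021 to 3334 CPM in sham, 3583 to 10767 at 14 days and 3123 to 6199 at 28 days.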

Additional observations from a re-analysis of the deposited data

How the results depend on the processing

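DESeq2 was the alternative that changed most calls. It called 1902 genes and 4 of the 10 at 14 days against sham, 996 genes and 1 of the 10 at 28 days against sham, and 126 genes at 28 days against 14 days, where edgeR called 0 each time. edgeR also called 1 gene at 14 days against sham with the 2 groups alone and 1 without the 2 libraries rich in skeletal muscle (Marco both times, with 1 library left at 28 days in the latter, assumed to vary like the others). With each library left out in turn, the genes called at 28 days against sham ran from 0 to 7 (5 without sham replicate 2, and 7 without 28-day replicate 3), with 0 of the 10 among them. The 5 were Itgb3, Ccdc42, Fbxo30, Myh10 and Igsf9 and the 7 Gm13309, Actn3, Mylpf, Neb, Ryr1, Tnni2 and Myoz1, named after their values were seen.

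Same-numbered libraries of different groups had correlations of their deviations from the group means between -0.55 and 0.65, so the numbers were not taken as pairs. With the replicate block, edgeR called 1 gene at 14 days against sham (Plac8), 0 of the 10, and 0 genes in the other comparisons.

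Of the log2 fold changes of the 10 genes under the alternatives, 553 kept direction and call, 5 passed the threshold (all with DESeq2) and 9 changed sign. Lpl at 28 days against sham ran from -0.22 to 0.40 with a library left out, and was -0.018 without the 3 nerve-rich libraries. Nr1h3 in that comparison ran from -0.0083 to 0.31. For 28 days against 14 days Msr1 ran from -1.53 to 0.74, Npc1 from -0.91 to 0.27 and Abca1 from -0.76 to 0.22, each highest without 14-day replicate 2. The causes of these changes were not tested. Olr1, with 2 to 126 counts per library, is the gene that depth limits most.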

Other observations

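Other genes of the 5 pathway lists, picked after their values were seen, are given as values. Soat1, which esterifies cholesterol for storage, was at 24.2, 8.15 and 11.9 CPM in sham, 28.6, 119 and 29.1 CPM in 14-day libraries and 21.6, 28.6 and 30.6 CPM in 28-day libraries. The 14-day libraries lay above sham (log2 fold change 2.0 ± 0.64, edgeR adjusted p = 0.138, DESeq2 adjusted p = 0.0159), and without replicate 2 the value was 0.99. Ch25h, which makes 25-hydroxycholesterol, was at 1.28, 1.00 and 0.89 CPM in sham, 4.83, 18.9 and 2.99 CPM in 14-day libraries and 3.39, 4.44 and 5.01 CPM in 28-day libraries, so that all 6 Ang II libraries exceeded the sham libraries (3.07 ± 0.70 at 14 days, edgeR adjusted p = 0.117, DESeq2 adjusted p = 0.00091; 1.91 without 14-day replicate 2). Lipa, the lysosomal acid lipase, was at 817 CPM in 14-day replicate 2 and at 108 to 241 CPM in the other 8 libraries.

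Vldlr, a receptor for particles that carry apolipoprotein E, had 130, 79.5 and 114 CPM in sham, 63.3, 18.8 and 48.6 CPM in 14-day libraries and 94.7, 43.5 and 78.0 CPM in 28-day libraries. Its 14-day libraries were below sham (-1.31 ± 0.46, edgeR adjusted p = 0.155; -0.92 without replicate 2).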
